A study of Mus musculus with 6 samples.

Results

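Isolated H3K27me3 regions are places where a Polycomb mark stands alone, far from any other marked place on the chromosome. They were taken from the controls of a study of Ezh2 mutant male germ cells. The peak lists of the 2 control libraries were merged where peaks touched or overlapped, which gave 37689 autosomal regions. Of these, 25477 held a peak in both controls. The isolated regions were chosen by the positions of the control peaks alone. They are the 510 of these 25477 (2.002%) whose nearest merged control region lay at least 200 kb away on each side, edge to edge, with chromosome ends counted as far. The other 24967 regions called in both controls serve as the comparison.

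H3K27me3 is trimethylation of lysine 27 on histone H3, a mark of silenced chromatin. Its writer is the Polycomb complex PRC2, in which EZH2 or the related enzyme EZH1 carries out the methylation. In mammalian cells PRC2 is concentrated at CpG-rich promoters of silent developmental genes, where neighbouring marked sites often form clusters, and it can bind the mark it has made and extend it to adjacent nucleosomes. In male germ cells the mark covers many promoters of somatic developmental genes.

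The mark was mapped by ChIP-seq, the sequencing of DNA recovered with an antibody to the mark, in spermatogenic cells from 6-week-old mice of mixed background. The Ezh2 mutants were MvhCre;Ezh2fl/fl (2 libraries) and the controls MvhCre;Ezh2fl/+ (2 libraries), so both genotypes carried the germ cell driver Mvh-Cre and at least 1 floxed Ezh2 allele, and the controls also had 1 wild-type allele. The cells mixed stages of spermatogenesis, and the labels give 90% as the share of spermatogenic cells. The labels do not say whether libraries came from separate animals, so p-values measure only the spread between these libraries, which may be technical. Loss of EZH2 was not measured here.

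MACS2 listed 42229 autosomal peaks in mutant 1, 32008 in mutant 2, 32193 in control 1 and 31774 in control 2. Mutant 1 thus stood apart from the other libraries, and the main retention share is given for each mutant. Retention by width, by distance and by chromosome is not split by mutant. The lists hold positions only, with no peak height, and read depth is unknown. A call is therefore all or nothing, and a place without a call may still carry the mark at a lower level. The file names attach a label of its own genotype to each list, so a difference between genotypes and a difference between control tracks cannot be told apart.

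The isolated regions were small. Their median width was 1785 bp (quartiles 1049 and 2840 bp, range 325 to 10390 bp), against 2193 bp for the other control regions. By width, 109 were under 1 kb, 365 were 1 to 5 kb, 36 were 5 to 20 kb and none was wider. The nearer neighbour lay a median of 285 kb away and the farther one 497 kb away, distances that the rule itself fixes to at least 200 kb. For the other control regions the nearer neighbour lay a median of 8.47 kb away. In 67 isolated regions the nearer neighbour was at least 500 kb away, and in 7 it was at least 1 Mb away.

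The stretches within 200 kb of the isolated regions made up 195.6 Mb, and the rule leaves no control peak there. Mutant peaks covered 0.970 kb per Mb of these flanks in mutant 1 and 0.373 kb per Mb in mutant 2, against 33.9 and 26.6 kb per Mb over all autosomes in the same libraries. Bins of the second caller, hiddenDomains, covered 0.172 and 0.0996 kb per Mb of the flanks in the mutants and 0.130 and 0.164 kb per Mb in the controls. Over all autosomes these bins covered between 18.5 and 22.5 kb per Mb in the 4 libraries. The flanks were thus sparse in both mutants and with both callers, with at most 2.86% of the autosomal density. In the controls the rule removes MACS2 peaks from the flanks, and the bins come from the same reads. Sparseness there is therefore no check of the label. Of the 25807 autosomal regions called in both mutants, 12.6% had no peak in either control. The rule therefore also keeps most of these mutant regions out of the flanks. Low mutant density there is in large part set by the rule and is no independent check of the label.

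Isolated regions sometimes followed each other along a chromosome. Of the 510, 293 had no isolated region as next neighbour and 217 stood in 95 runs of 2 or more. The longest runs held 4 isolated regions each, and there were 3 of them. One reached from 82062734 to 84248337 of chromosome 16 (mm9, counted from 1), and 2 of its 4 regions were called in both mutants. The others, at 39147611 to 40690303 of chromosome 17 and 7001232 to 8060553 of chromosome 2, each had 3 of 4 called in both.

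Individual regions show the range of outcomes. The widest isolated region lay at chr3:55583063-55593452, where peaks covered 9.58 and 10.3 kb in mutants 1 and 2 and 10.4 and 9.68 kb in controls 1 and 2. At chr17:93597369-93605082 peaks covered 7.714 and 7.625 kb in the mutants and 7.517 and 7.623 kb in the controls. Lengths of the genotypes overlapped in the first region, and in the second, which lay 1402 kb from its nearer neighbour, both mutants were just above both controls. At chr11:92957262-92964719 the lengths inside the region were 6.96 and 7.14 kb in the mutants and 7.02 and 5.82 kb in the controls. At chr12:62621638-62628989 they were 7.35 and 6.65 kb in the mutants and 7.27 and 6.83 kb in the controls. At chr14:60243179-60250063 they were 6.47 and 6.41 kb in the mutants and 6.18 and 6.88 kb in the controls. The lengths of the genotypes overlapped in these last 3 regions.

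The 5 widest isolated regions without any mutant peak were at most 2.28 kb wide. At chr13:4655570-4657846 peaks covered 0 and 0 kb in the mutants and 1.90 and 1.85 kb in the controls. At chr18:29797865-29800086 they covered 0 and 0 kb in the mutants and 1.34 and 2.22 kb in the controls. At chr6:43789373-43791536 they covered 0 and 0 kb in the mutants and 0.830 and 2.15 kb in the controls. In the last of these the controls themselves differed, as the peak of control 1 covered only part of the region. At chr7:5409535-5411654 the lengths were 0 and 0 kb in the mutants and 2.1 and 1.11 kb in the controls. At chr7:14891125-14893037 they were 0 and 0 kb in the mutants and 1.91 and 1.41 kb in the controls. Bins of hiddenDomains were absent from both mutants in all 5. They were present in both controls except on chromosome 13, where control 1 had none.

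**Figure D1:**
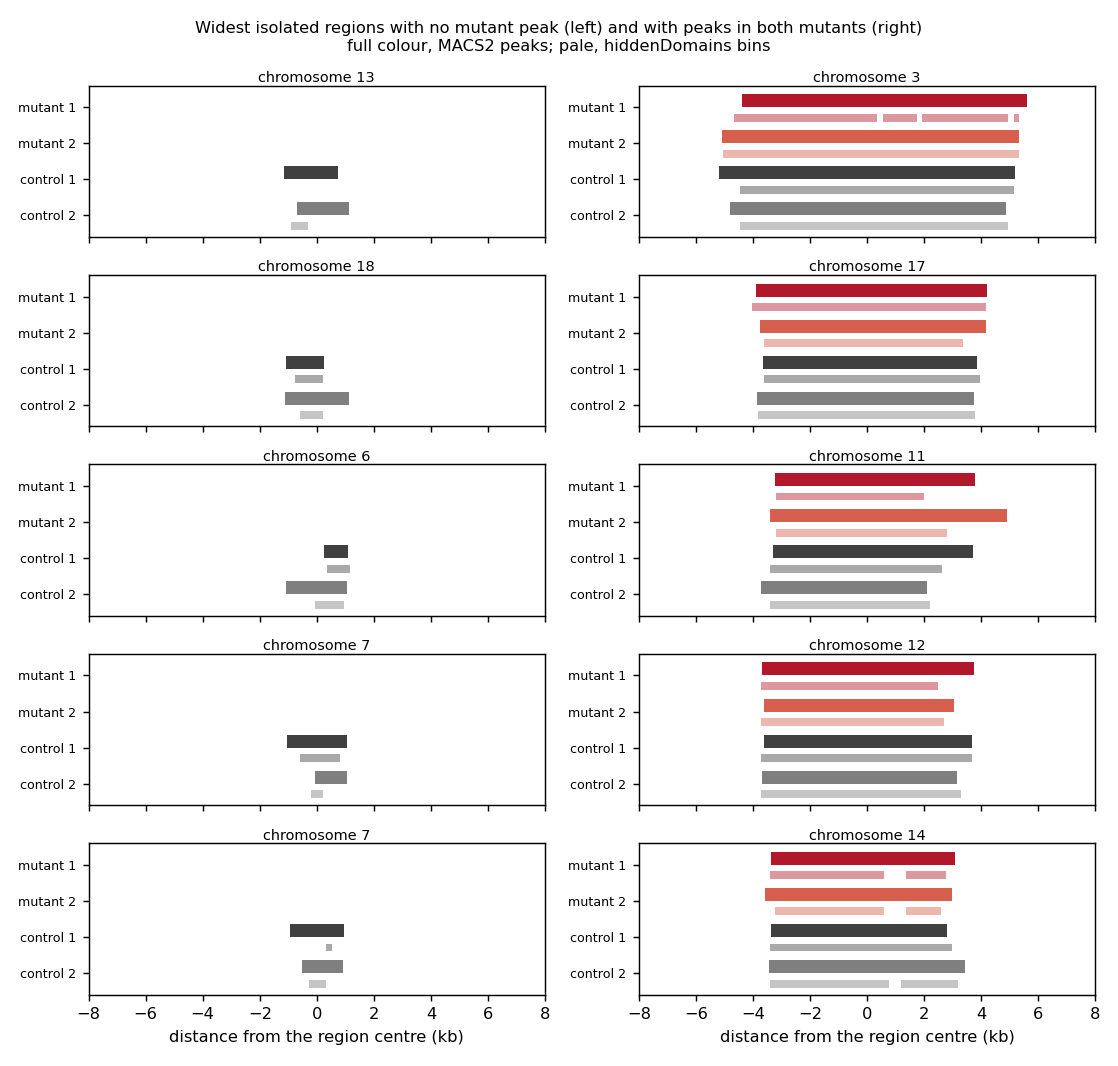
Peaks and bins in the 4 libraries around the 5 widest isolated control regions with no mutant peak (left) and the 5 widest with a peak in both mutants (right). The x axis is the distance from the region's centre in kb, full-colour bars are MACS2 peaks and pale bars hiddenDomains bins. The left-hand regions are at most 2.28 kb wide, while those on the right are at least 6.88 kb wide and have peaks in all libraries. On chromosome 11 the peak ends 4.90 kb right of the centre in mutant 2 and 2.09 kb right of it in control 2.

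Isolated regions called in a single mutant had a median width of 1107 bp, close to the 961 bp of those called in neither. For those called in both it was 2297.5 bp. The 5 widest called in a single mutant are given here. At chr6:7930238-7935444 peaks covered 0 and 3.25 kb in mutants 1 and 2 and 3.24 and 5.21 kb in the controls. This was the only isolated region of 5 kb or more that was not called in both mutants. At chr9:5395896-5398729 the lengths were 0 and 1.72 kb in the mutants and 2.50 and 2.83 kb in the controls. At chr7:14169590-14172355 they were 0 and 2.1 kb in the mutants and 2.50 and 2.72 kb in the controls. In mutant 1 the chromosome 7 region held no peak but 0.4 kb of hiddenDomains bins. At chr4:72512145-72514765 they were 0.671 and 0 kb in the mutants and 1.02 and 2.62 kb in the controls. At chr1:25564358-25566575 they were 0 and 1.94 kb in the mutants and 2.13 and 1.24 kb in the controls. Over all 75 regions called in a single mutant, 48 were called in mutant 1 only and 27 in mutant 2 only, so these wide examples, most of which lack a call in mutant 1, are not typical.

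The most remote regions are described next. At chr18:89936658-89940647, the last control region of its chromosome and 2009 kb from its neighbour, peaks covered 3.90 and 3.99 kb in the mutants and 3.94 and 3.75 kb in the controls. At chr1:117580934-117582576, 1590 kb from its nearer neighbour, they covered 1.38 and 0.951 kb in the mutants and 1.08 and 1.64 kb in the controls. All 7 regions with no control neighbour within 1 Mb were called in both mutants. Among the 67 with none within 500 kb, 46 (68.7%) were, against 71.8% of other control regions weighted to their width and 78.5% of all control regions. The 5 isolated regions beside a chromosome end were called in both mutants in 4 cases.

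Narrow and wider regions lay on both sides of the 200 kb limit. Just inside lay chr12:6795952-6796510, with a neighbour at 200.1 kb and peaks of 0.327 and 0 kb in the mutants and 0.559 and 0.411 kb in the controls. Next came chr10:104805993-104808369, with 1.58 and 1.61 kb in the mutants and 1.83 and 2.38 kb in the controls. The third was chr3:39756022-39756722, with 0 and 0.662 kb in the mutants and 0.701 and 0.599 kb in the controls. Just outside, with the neighbour between 199.2 and 199.99 kb away, 1 of 3 regions was called in both mutants. That was chr2:82096967-82099659, with 1.87 and 2.01 kb in the mutants and 2.69 and 2.63 kb in the controls. The others, at chr10:16288150-16288903 and at chr1:73298333-73299271, were under 1 kb wide and had no mutant peak.

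The main question was how often an isolated region was still called in the Ezh2 mutants, compared with control regions of the same width that have neighbours. Of the 510 isolated regions, 350 (68.6%) were called in both mutants, 75 (14.7%) in 1 and 85 (16.7%) in neither. A call meant that a mutant peak covered at least 1 bp of the region. Over all 25477 autosomal control regions the shares were 78.5% in both mutants, 10.9% in 1 and 10.5% in neither. Part of that gap lay in the smaller width of the isolated regions. With the other control regions weighted to the same 4 width classes, 73.8% had a peak in both mutants and 13.3% in no mutant. The isolated regions thus fell short of their width-matched counterparts by 5.16 percentage points, and the exact 95% Clopper-Pearson interval of their own share was 64.4 to 72.6%. Such intervals cover counting error only.

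The shortfall was small and had the same sign in both mutants. Mutant 1 had a peak in 398 isolated regions (78.0%, interval 74.2 to 81.6%), against 82.8% of width-weighted others and 86.1% of all control regions. Mutant 2 had a peak in 377 (73.9%, interval 69.9 to 77.7%), against 77.7% and 82%. The differences from the others of the same width were -4.72 and -3.78 points, a mean of -4.25 ± 0.661 points (SD, n = 2). Regions are not replicates of a condition, so no test was made over them. The 4 classes do not remove all of the difference in width. With classes at the deciles of the isolated regions' width the difference in calls in both mutants was -3.02 points (68.6% against 71.7%), and that 71.7% lies within the interval of the isolated share. With the limit at 500 kb it was -3.13 points over 67 regions.

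Within width classes the isolated regions of 1 to 5 kb accounted for most of the shortfall. In that class 280 of 365 (76.7%) had a peak in both mutants and 39 (10.7%) in no mutant, against 83.1% and 7.43% of all autosomal control regions of this width. Under 1 kb, 35 of 109 (32.1%) were called in both and 46 (42.2%) in neither, against 33.6% and 37.8%. At 5 to 20 kb, 35 of 36 (97.2%) were called in both and 0 in neither, against 99.8% and 0.0735%. The shares under 1 kb and at 5 to 20 kb therefore lay near those of all control regions of the same width, and their intervals (23.5 to 41.7% and 85.5 to 99.9%) included them.

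Among finer steps of width, chosen after seeing the data, the shortfall was largest at 1 to 1.5 kb. At 1 to 1.5 kb, 42 of 96 isolated regions (43.8%, interval 33.6 to 54.3%) were called in both mutants, against 57.0% of 4047 others. At 1.5 to 2 kb it was 55 of 76 (72.4%, interval 60.9 to 82.0%), against 77.3% of 3892 others, a share within that interval. From 2 kb upward isolated regions were called about as often as the others. At 2 to 3 kb the shares were 91.1% of 112 and 91.5% of 5731, and at 3 to 5 kb all 81 isolated regions and 98.5% of 5353 others were called in both mutants. Between 0.5 and 1 kb they were 32.6% of 95 and 34.6% of 2794, and under 0.5 kb 28.6% of 14 and 26.4% of 382. The steps where retention changes most with width are also those where the isolated regions fell furthest below the others.

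**Figure D2:**
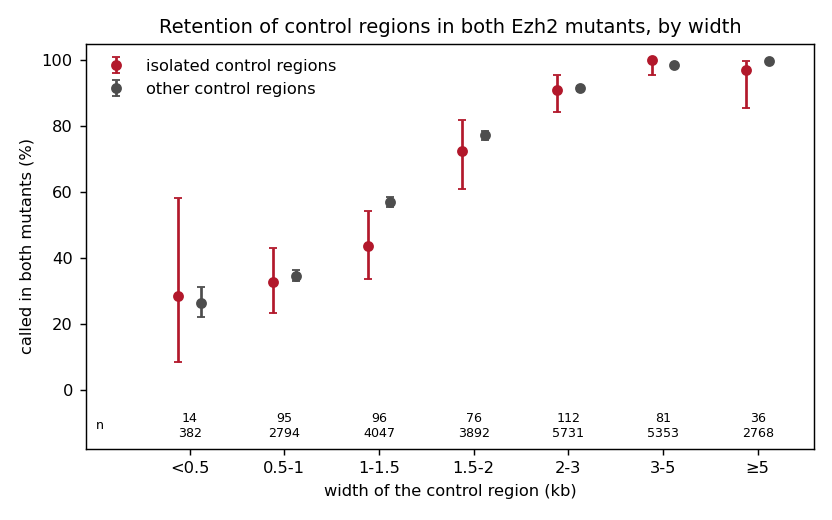
Share of control regions called in both Ezh2 mutants (y axis, percent) by width of the region (x axis, kb), for isolated regions and for other control regions. Bars are exact 95% binomial intervals and the numbers below are regions, isolated above others. The 2 sets differ most at 1 to 1.5 kb, at 43.8% and 57.0%, and lie together from 2 kb upward.

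Retention was lower at greater distance from the next region in the narrower width classes, though not at every step. Among control regions under 1 kb, 46.8% were called in both mutants where the nearer neighbour lay under 2 kb away, 36.4% at 2 to 10 kb, 30.1% at 10 to 50 kb, 27.9% at 50 to 100 kb and 19.1% at 100 to 200 kb. The isolated regions did not continue this decline, at 33.9% of 62 regions at 200 to 300 kb, 30% of 30 at 300 to 500 kb and 29.4% of 17 beyond. Among regions of 1 to 5 kb the share was 85.7% under 2 kb, 81.2% at 10 to 50 kb and 81.8% at 100 to 200 kb. It was then 77.8% of 207 isolated regions at 200 to 300 kb, 73.5% of 113 at 300 to 500 kb and 80.0% of 45 beyond. Intervals of the isolated classes were wide, for example 64.3 to 81.3% at 300 to 500 kb, so no order can be read among them. Width was not constant within the 1 to 5 kb class. Its median was 2392 bp under 2 kb, 2137 bp at 10 to 50 kb, 2174 bp at 100 to 200 kb and 2059 bp at 200 to 300 kb. Under 1 kb the median was 730 bp under 2 kb and 764 bp at 100 to 200 kb. The part of width in the trend with distance was not tested.

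**Figure D3:**
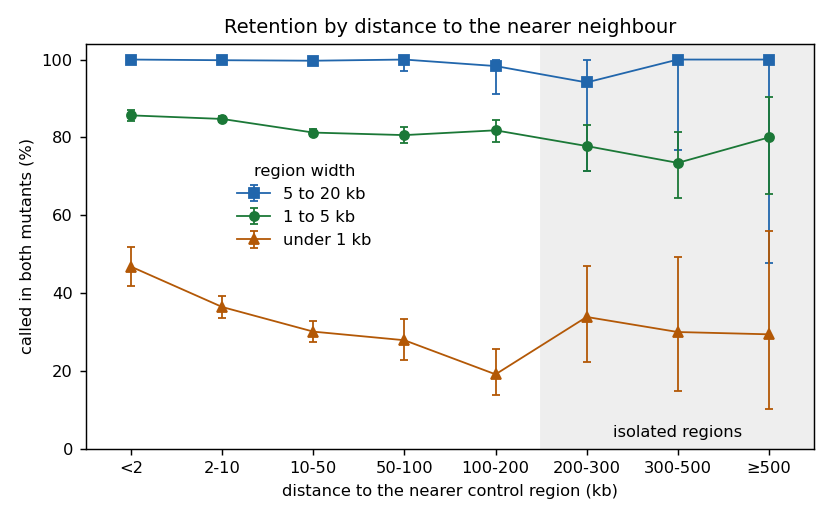
Share of control regions called in both mutants (y axis, percent) by distance to the nearer control region (x axis, kb), for 3 width classes. Bars are exact 95% binomial intervals, and the shaded part holds the isolated regions. Median width differs between distances within a class. Regions of 5 to 20 kb stay above 94% throughout, while those under 1 kb go down with distance to 19.1% at 100 to 200 kb and stand between 29.4 and 33.9% beyond 200 kb.

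The next comparison treated every library alike. In each library's own list, 741 and 821 autosomal peaks of mutants 1 and 2 and 806 and 818 of controls 1 and 2 had no neighbour within 200 kb. The mutants averaged 781 ± 56.6 and the controls 812 ± 8.49 (SD, n = 2 each), a difference of -31 that lay within the spread of the mutants (two-sided exact permutation p = 1). Without mutant 1 the difference was 9, with hiddenDomains bins 17, and with a limit of 100 kb -131.5 (exact permutation p = 0.33). As a share of all autosomal peaks they made up 1.75% and 2.57% in the mutants and 2.50% and 2.57% in the controls (exact permutation p = 0.667). A test of 2 libraries against 2 cannot give a p below 0.33.

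Isolated peaks of 1 control were found again more often in the other control than in a mutant. Of the 806 isolated peaks of control 1, 67.4% had a peak in mutant 1, 61.5% in mutant 2 and 80.0% in control 2. Of the 818 of control 2, 68.2% had one in mutant 1, 62.6% in mutant 2 and 82.3% in control 1. The isolated peaks of a mutant, in contrast, were found in the controls somewhat more often than in the other mutant. Of the 741 of mutant 1, 66.9% had a peak in mutant 2, 75.4% in control 1 and 74.8% in control 2. Of the 821 of mutant 2, 83.3% had one in mutant 1, 85.0% in control 1 and 84.9% in control 2. Averaged over the 12 ordered pairs, 78.1% were found again within a genotype and 72.5% between genotypes, a difference of 5.66 points. That is the largest of the 3 ways to pair the libraries, and 3 pairings cannot give an exact permutation p below the observed 0.33 (two-sided). The difference was 2.51 points without control 1, 2.78 without control 2, 9.70 without mutant 2, 7.64 without mutant 1 and 2.04 with the limit at 500 kb (exact permutation p = 0.667).

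Set against other peaks of the same width from the same library, isolated peaks were searched for with opposite results in the 2 genotypes. In the controls they were found more often than the others, by 19.7 and 19.3 points when they came from mutant 1, by 13.8 points in both when they came from mutant 2, and by 2.09 and 3.97 points when they came from the other control. In the mutants, control peaks that were isolated were found less often than the others. The differences were -8.44 and -6.12 points for those of control 1 and -7.49 and -5.40 points for those of control 2. Between the mutants the sign depended on the direction, at 7.57 points from mutant 1 to mutant 2 and -1.04 points in reverse. Averaged over pairs, these differences were 3.15 points within genotypes and 4.89 points between them. The gap of -1.75 points had the sign opposite to that of the unadjusted shares (two-sided exact permutation p = 0.33, the smallest that 3 pairings can give). The contrast between the libraries searched was not itself tested.

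**Figure D4:**
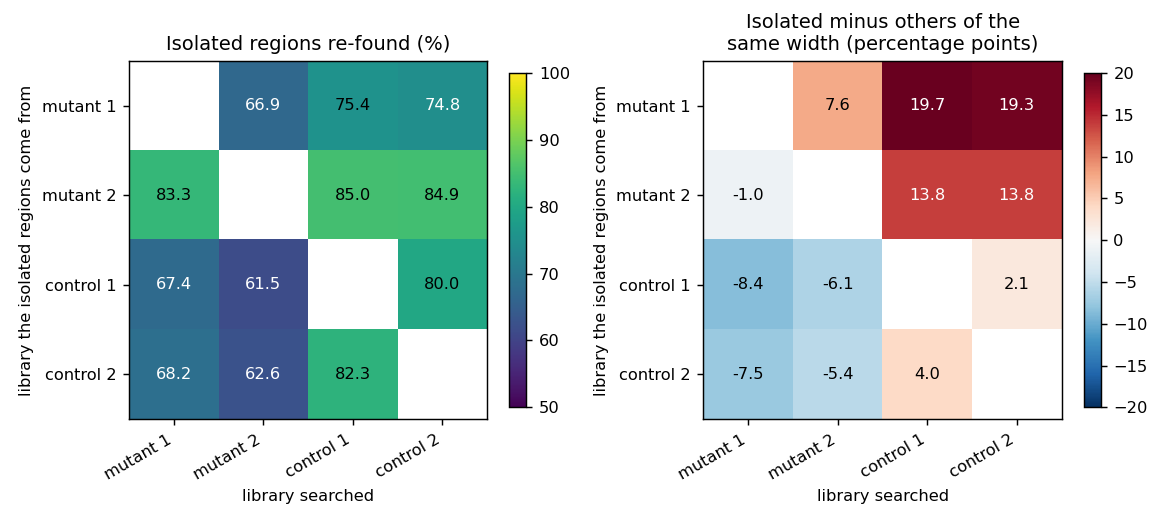
Share of each library's isolated peaks that had a peak in another library (left, percent), and that share minus the one for other peaks of the same width (right, percentage points). Rows are the libraries the peaks come from and columns the libraries searched. In the right-hand panel every control column is above 0 and control peaks searched in mutants are between -8.44 and -5.40.

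The reverse definition gave the counterpart in the mutants. Merging the 2 mutant lists and asking for a peak in both mutants and no mutant region within 200 kb gave 410 isolated mutant regions with a median width of 1930.5 bp. Of these, 381 (92.9%, interval 90.0 to 95.2%) had a peak in both controls and 14 (3.41%) in no control, against 77.7% and 12.6% of all 25807 autosomal mutant regions. Width-weighted others were called in both controls in 75.7% of cases, 17.2 points less. With hiddenDomains bins the difference was 6.11 points, at 95.9% of 581 isolated regions and 89.8% of others. Under 1 kb the contrast was widest, with 61 of 74 isolated mutant regions (82.4%) called in both controls, against 57.8% of all mutant regions of that width. At 1 to 5 kb it was 284 of 300 (94.7%), against 77.9%.

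Lone regions of the mutants were therefore nearly all control regions, whereas 16.7% of the lone control regions had no mutant peak. The isolated lists of the genotypes shared 224 places, which is 43.9% of the 510 isolated control regions and 54.6% of the 410 isolated mutant regions. The overlap of isolated lists within a genotype was not computed, so these shares do not measure a difference between genotypes. A further 157 isolated mutant regions lay on control regions that had a control neighbour within 200 kb. A further 223 isolated regions were called in only 1 control, with a median width of 569 bp. Both mutants called 16 of them (7.17%) and neither mutant called 169 (75.8%). Over all 12212 autosomal regions called in only 1 control, whose median width was 587 bp, these shares were 22.5% and 47.6%.

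Kept regions were shorter in the mutants, as kept control regions were in general. In the 350 isolated regions called in all 4 libraries, the median peak length inside the region was 1730.5 and 1643 bp in mutants 1 and 2 and 1994 and 2176 bp in controls 1 and 2. The median log2 ratio of mutant to control length was -0.18, against -0.17 in the 19661 other regions called in all libraries. Both mutants were below both controls in 156 of the 350 (44.6%) and above both in 7 (2%). Over all 20011 control regions called in every library these shares were 45.1% and 3.98%, so the share below was near that of control regions at large. In bins, both mutants were below both controls in 161 of the 350 (46.0%) and above both in 12 (3.43%), against 42.3% and 7.18%. Because regions were drawn from the merged control peaks, a mutant peak that runs past the edge is cut there, and the control length is favoured. Counting peaks at full length, the medians were 1857 and 1653.5 bp in the mutants and 1994 and 2176 bp in the controls, and the median log2 ratio was -0.14 against -0.11 in the others.

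Most kept regions held a single peak, as kept control regions did in general. Mutant 1 covered the place with a single peak in 346 of the 350 (98.9%) and mutant 2 in 349 (99.7%), against 96.8% and 96.4% of the other regions called in all libraries. The mutant peak ran past an edge of the control region in 143 regions (40.9%) in mutant 1 and 127 (36.3%) in mutant 2, against 47.7% and 40.8% of the other control regions. Summed over all 510 isolated regions, peaks covered 797 and 770 kb in the mutants and 987 and 1030 kb in the controls, of a total width of 1123 kb. Each region had to hold a peak in both controls and was bounded by their peaks. The choice of regions therefore raises the control sums, and the comparison is a description only. Over the 350 called everywhere they covered 771 and 746 kb in the mutants and 845 and 885 kb in the controls. When both mutants had to cover at least 50% of a region, 53.1% of isolated regions and 56.7% of width-weighted others qualified. Both controls covered that much of 89.2% of the isolated regions, a share that the choice of regions also raises.

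**Figure D5:**
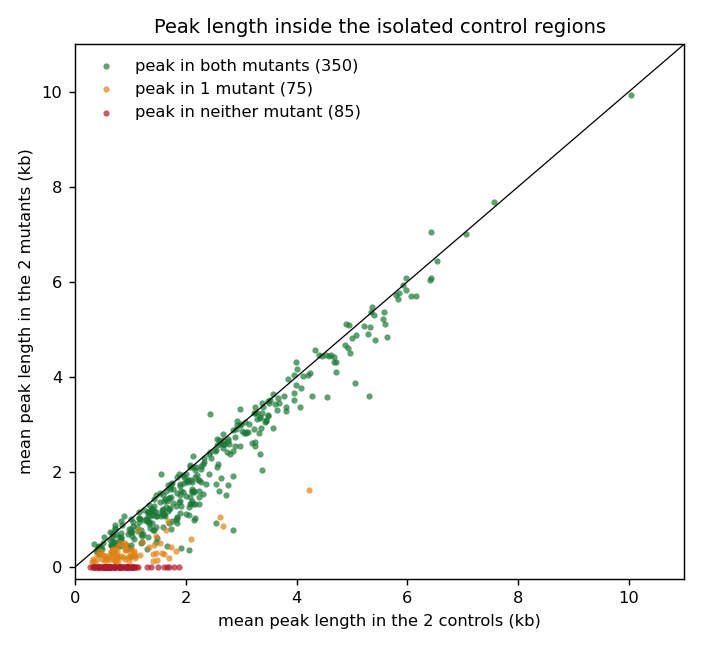
Peak length inside each of the 510 isolated control regions, as the mean of the 2 mutants (y axis, kb) against the mean of the 2 controls (x axis, kb), with the line of equality. Colours give the number of mutants with a peak. Most long regions lie near the line, with exceptions such as the 5.21 kb region on chromosome 6 that has no peak in mutant 1. The 85 regions with no mutant peak have mean control lengths under 2 kb.

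The second caller gave a similar account, with a smaller gap in some measures. Bins of hiddenDomains lay in 324 (63.5%) and 315 (61.8%) of the 510 isolated regions in mutants 1 and 2 and in 450 (88.2%) and 419 (82.2%) in controls 1 and 2. The controls come from the same reads that chose the regions. Width-weighted others held bins in 68.1% and 62.1% of cases in the mutants and 80.7% and 79.7% in the controls. Isolated regions thus had bins in the controls more often than others of their width, and in mutant 1 less often. Of the 402 isolated regions with bins in both controls, 283 (70.4%) had bins in both mutants and 71 (17.7%) in neither. Over all control regions with bins in both controls, of any width, these shares were 77.5% and 12.9%. At 1 to 5 kb, 74.1% of such isolated regions and 77.6% of such others had bins in both mutants. Under 1 kb it was 26.5% and 24.3%, and at 5 to 20 kb 97.2% and 99.6%. Over all 510 isolated regions, 56.5% had bins in both mutants, against 58.1% of width-weighted others. In 28 isolated regions (5.49%) there were bins in both controls and neither a peak nor a bin in either mutant. The share was 3.57% over all control regions and 4.16% over width-weighted others. When bins replaced peaks throughout, 631 isolated regions were found, of which 71.2% had bins in both mutants, against 75.7% of width-weighted others.

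Regions that the second caller did not mark in the controls were kept least. Of the 43 isolated regions with no bin in either control, 8 (18.6%) had a peak in both mutants and 28 (65.1%) in neither. Of the 2646 other control regions without a control bin, 40.0% had one in both and 32.5% in neither. With a bin in 1 control the shares called in both mutants were 27.7% of 65 isolated regions and 44.98% of 2710 others, and with bins in both controls 80.6% of 402 and 88.6% of 19611. The isolated regions without bins were narrower, with a median of 801 bp against 1094.5 bp. The part of width in this difference was not tested.

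Mutant peaks beside the isolated regions were counted in each mutant. The rule leaves no control peak in these flanks, so a gain in the mutants was not tested. How often mutant peaks without a control peak are shared by both mutants elsewhere was not computed. The counts therefore show no trait particular to these flanks. Mutant 1 had 365 peaks and mutant 2 had 217 in the 200 kb flanks. A flank peak of mutant 1 lay near 139 isolated regions (27.3%) and one of mutant 2 near 67 (13.1%), and a place called in both mutants lay near 21 (4.12%). The remaining 343 isolated regions (67.3%) had no mutant peak in their flanks. Such flank peaks were no rarer beside kept regions than beside lost ones. Of the 350 regions kept in both mutants 65.1% had no flank peak, as had 74.1% of the 85 called in neither.

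Isolated regions were spread over all 19 autosomes, unevenly. They made up 3.40% of the control regions of chromosome 12 (35 regions) and 3.37% of those of chromosome 1 (52 regions), but 0.825% on chromosome 11 (14 regions) and 1.14% on chromosome 19 (9 regions). Retention in both mutants was highest on chromosome 2, at 36 of 42 (85.7%, interval 71.5 to 94.6%), against 81.9% of the other control regions there. It was lowest on chromosome 13, at 9 of 19 (47.4%, interval 24.4 to 71.1%), against 75.7% of the others. On chromosome 17 it was 9 of 18, against 79.9% of the others, and 8 of these 18 had no mutant peak. On chromosome 4, 36 of 44 isolated regions (81.8%) were called in both mutants, against 82.6% of the other control regions there. On chromosome 10, 18 of 27 (66.7%) were, against 74.5% of the others. The others in these comparisons were not matched for width. Isolated regions had a median width of 1586 bp on chromosome 13 and 1209 bp on chromosome 17, against 2193 bp for the others genome-wide. Numbers per chromosome were small, and no chromosome was tested.

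On the X chromosome, which the rule leaves out, most control regions would count as isolated. Of 64 regions called in both controls, 36 (56.3%) had no neighbour within 200 kb. Of these 36, 28 (77.8%) were called in both mutants and 0 in no mutant, against 79.7% and 1.56% of all 64. With them included the isolated regions fell short of width-weighted others by 4.70 points.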

How the data were processed

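H3K27me3 was mapped by ChIP-seq in 2 Ezh2 mutant and 2 control libraries; 1 input sample per genotype was not used here. Per the file headers, the authors deposited a MACS2 peak list for each library, with chromosome, start and end only. Per the file names, they also deposited hiddenDomains bins with a display score, whose 4 values are not explained. The submitters' processing notes name Bowtie, SAMtools, bedtools and the mm9 build. For versions, thresholds, control tracks and depth, nothing is given in the sources used here. The gene table at hand is of another build, so no gene, annotation or sequence is given.

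Peaks and bins that touch were joined, and covered lengths computed in Python 3.11.15 (numpy 2.4.6, pandas 2.3.3, scipy 1.17.1). A region was called in a library where a peak covered at least 1 bp. No region was filtered out. Other control regions were weighted to the isolated regions' width classes (under 1, 1 to 5, 5 to 20 and over 20 kb). Exact permutation tests ran over libraries, and intervals are exact Clopper-Pearson at 95%. Region functions were tested on simulated data.

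Groups came from titles. Named regions follow a rule: the 5 widest isolated regions called in both, 1 or neither mutant, the 3 most isolated, the 3 on either side of the limit, and the 3 widest without mutant peaks or bins but with control bins. The rule for isolated regions and the choice of comparisons were made with earlier results of these data known. Same-numbered libraries were not paired: their deviations in 100-kb windows of log2(kb + 1) peak coverage had a correlation of 0.02.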

Additional observations from a re-analysis of the deposited data

How the results depend on the processing

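The shortfall of isolated control regions in calls in both mutants kept its sign under every alternative run, from -3.02 to -6.88 points, and from -7.04 to -3.78 points with 1 library left out. The share of isolated regions called in neither mutant was 22.4% with the limit at 500 kb, against 14.55% of width-weighted others. It was 27.1% against 24.4% where 50% cover was required, and 22.2% against 17.2% with the 31863 widest peaks of each list. With 1 library left out it was 21.96 to 27.5% (26.1% without mutant 1, 26.9% without control 1), against 17.2 to 22.3% of the others. Fewer conditions apply to these leave-one-out shares. The excess of isolated mutant regions in the controls was 20.02 points at 500 kb, 22.2 with 50% cover, 6.11 with bins, and 13.9 to 22.1 with 1 library left out. The difference in the number of isolated peaks per library was -131.5 at 100 kb, 20 at 300 kb, 26 at 500 kb, 17 with bins and 14 with equal numbers of the widest peaks, and -71 to 9 with 1 library left out. With a replicate block it stayed at -31 (exact sign-flip p = 1, smallest possible 0.5), and it applies to no other result here. The share of isolated regions with bins in both mutants was 41.0% where bins had to cover 50%, and 61.8 to 63.5% with 1 mutant left out. The mutant minus control sum of peak length was -225 kb over all isolated regions and -107 kb over those called in all libraries. These sums are a description only, since the regions had to be called in the controls. Of 69 alternative values, 47 were counted as the same, 17 as moved in size with the sign kept and 5 as reversed in sign. All 5 reversals concerned the number of isolated peaks per library. Leave-one-out values for bins, flanks and lengths were added after seeing the data. Unknown depth and the lack of peak heights limit all of these results, since a lost call may be a weak signal just under a threshold.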
